A study of Mus musculus with 19 samples.

Results

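Immediate early transcription factor genes were followed across mouse induced pluripotent stem cells (iPSCs), which are cells returned by reprogramming to a state from which all tissues can form. The 10 genes were Fos, Fosb, Jun, Junb, Egr1, Ier2, Atf3, Nr4a1, Nr4a2 and Klf6, among 52143 genes in the deposited table of counts. They were chosen by name and not by a threshold on their values, but with earlier results of these data known. All 10 passed the filter on low counts and were tested. The study compared iPSC lines of 3 genotypes of the leptin receptor gene Lepr, from fibroblasts taken at embryonic day 14.5 from litters of OB-Rdb/+ parents and reprogrammed with the STEMCCA lentivirus, which carries Oct4, Sox2, Klf4 and cMyc. The corrected lines (db_c_1 and db_c_2, 4 libraries) were db/db iPSCs repaired with CRISPR-Cas9, and the labels do not say which db/db line they came from. The db/db lines (adb_db5, bdb_db5, adb_db7 and bdb_db7, 8 libraries) were homozygous for the db mutation of Lepr. The control lines (aB6_A5, bB6_A5, aB6_B1 and bB6_B1, 7 libraries) were wild type. Every group, control lines included, was made with the reprogramming vector. Each line was sequenced in duplicate except aB6_A5, which has 1 library here, and nothing in the labels says that duplicates are separate cultures. The p-values therefore measure the spread between these lines or libraries, which may be technical.

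Immediate early genes are switched on within minutes by growth factors, serum, stress or handling of cells, without the need for new protein. Serum response factor, CREB and related factors already bound at their promoters are activated by MAP kinases and other kinases. Their products are mostly transcription factors that alter the next wave of genes, and their messenger RNAs are short-lived. Fos and Fosb proteins pair with Jun and Junb proteins into the AP-1 dimer, and Atf3 is a stress-induced relative that often represses. Egr1 and Klf6 are zinc finger factors, Nr4a1 and Nr4a2 are orphan nuclear receptors, and Ier2 is a small nuclear regulator induced together with them.

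Library totals ran between 27333914 and 41203703 estimated counts (median 34455891). Levels are given as CPM, the counts of a gene divided by the library total, after TMM scaling, which corrects the totals for differences in composition. The second library of adb_db7 stood apart, with 4.81% of its counts in the ribosomal RNA-like gene Gm42418, against at most 0.514% in the other 18 libraries. The counts of called members were the same with and without it in the 10 comparisons fitted both ways. The pluripotency markers Pou5f1, Nanog and Sox2 were at 368 CPM or more in every library. Pou5f1 (Oct4), Sox2 and Klf4, which is also in the pluripotency list, are carried by the reprogramming vector. The part of the vector in their counts was not tested. Fibroblast and extraembryonic endoderm markers were also measured, and their values stand beside the results with which they moved.

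Promoters are shown for Fosb, Atf3 and Nr4a2, which had the largest changes between groups, and for Fos, which is set beside its relative Fosb. They are printed as RefSeq gives them on GRCm38.p6, from 250 bases before to 50 bases after the transcript start. They lie at chr12:85473640-85473939 on the plus strand for Fos, chr7:19309996-19310295 on the minus strand for Fosb, chr1:191183284-191183583 on the minus strand for Atf3 and chr2:57123954-57124253 on the minus strand for Nr4a2. Capitals mark the core of the cyclic AMP response element (TGACG, or CGTCA on the other strand), which CREB and ATF factors bind, and the TATA box (TATAAA, or TTTATA on the other strand).
Fos: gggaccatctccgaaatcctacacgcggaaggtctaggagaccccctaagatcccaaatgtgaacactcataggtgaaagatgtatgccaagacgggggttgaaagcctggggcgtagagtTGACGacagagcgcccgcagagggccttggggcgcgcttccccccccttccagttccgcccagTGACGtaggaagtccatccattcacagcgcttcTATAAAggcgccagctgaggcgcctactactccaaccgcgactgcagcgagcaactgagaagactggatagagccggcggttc
Fosb: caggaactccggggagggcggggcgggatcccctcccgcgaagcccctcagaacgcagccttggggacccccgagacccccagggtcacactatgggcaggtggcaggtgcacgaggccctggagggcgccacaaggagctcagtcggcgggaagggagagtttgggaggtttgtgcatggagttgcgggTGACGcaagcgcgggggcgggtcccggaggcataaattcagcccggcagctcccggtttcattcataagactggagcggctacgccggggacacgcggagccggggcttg
Atf3: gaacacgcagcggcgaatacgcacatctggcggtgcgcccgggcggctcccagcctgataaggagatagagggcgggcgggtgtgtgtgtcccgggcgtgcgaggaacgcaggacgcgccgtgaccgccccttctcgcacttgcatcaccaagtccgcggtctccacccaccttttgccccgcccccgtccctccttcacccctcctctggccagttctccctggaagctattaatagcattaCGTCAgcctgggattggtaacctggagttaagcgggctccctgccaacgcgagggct
Nr4a2: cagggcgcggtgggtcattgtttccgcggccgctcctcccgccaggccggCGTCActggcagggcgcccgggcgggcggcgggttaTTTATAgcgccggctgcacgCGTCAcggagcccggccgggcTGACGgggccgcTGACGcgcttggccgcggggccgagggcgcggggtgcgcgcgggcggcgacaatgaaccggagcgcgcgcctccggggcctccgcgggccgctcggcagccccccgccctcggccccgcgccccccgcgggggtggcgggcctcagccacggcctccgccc

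The table of promoters held a window for 8 of the 10 members, all but Egr1 and Ier2. The TGACG core was in 6 of the 8 windows (Fos, Fosb, Junb, Atf3, Nr4a1 and Nr4a2), against 20.8% of 32851 windows of the same length. Nr4a1 and Nr4a2 each held 4 copies, Fos held 2 copies, and the copy of Atf3 ended 3 bases before its start. The letters of a TATA box were in 3 windows (Fos, Junb and Nr4a2, background 13.6%), and those of Fos lay 28 bases before its start. The match of Junb began at the start itself, and that of Nr4a2 lay 159 bases before its start on the other strand. The EGR site GCGNGGGCG was in Fosb, Nr4a1 and Nr4a2 (5.55% of all windows), and each copy overlapped a GC box. The GC box GGGCGG was in 7 windows (35.7%). The CArG box of serum response factor, the AP-1 element TGANTCA and the STAT site TTCNNNGAA were in no window of a member (1.63%, 7.81% and 8.3% of all windows). All motifs were searched on both strands. A match is only a run of letters, and a missing one says nothing beyond this window.

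Fos (ENSMUSG00000021250, chr12:85473890-85477273, GRCm38, as for all gene positions) encodes the founding partner of AP-1. Its level was 345, 366, 372 and 356 CPM in the corrected libraries db_c_1a, db_c_1b, db_c_2a and db_c_2b. The 8 db/db libraries ran between 208 and 275 CPM (median 261), and the 7 control libraries between 299 and 504 CPM (median 360). Every db/db library was thus below every corrected and every control library, while the corrected libraries lay inside the control range. Fos fell in db/db against control lines (254 ± 18 against 384 ± 51 CPM, SD over 4 lines each), with a log2 change of -0.60 ± 0.09 (SE, edgeR adjusted p = 0.003). It rose in corrected against db/db lines (358 ± 7.5 CPM over 2 lines), by 0.50 ± 0.11 (edgeR adjusted p = 0.0071), and against control lines it differed by -0.10 ± 0.11 (edgeR adjusted p = 0.52). Without db_c_1 or db_c_2 the rise missed the threshold (edgeR adjusted p of 0.051 to 0.069). With lines of a shared name summed to 1 sample, Fos did not pass in db/db against control (edgeR adjusted p = 0.15).

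**Figure D1:**
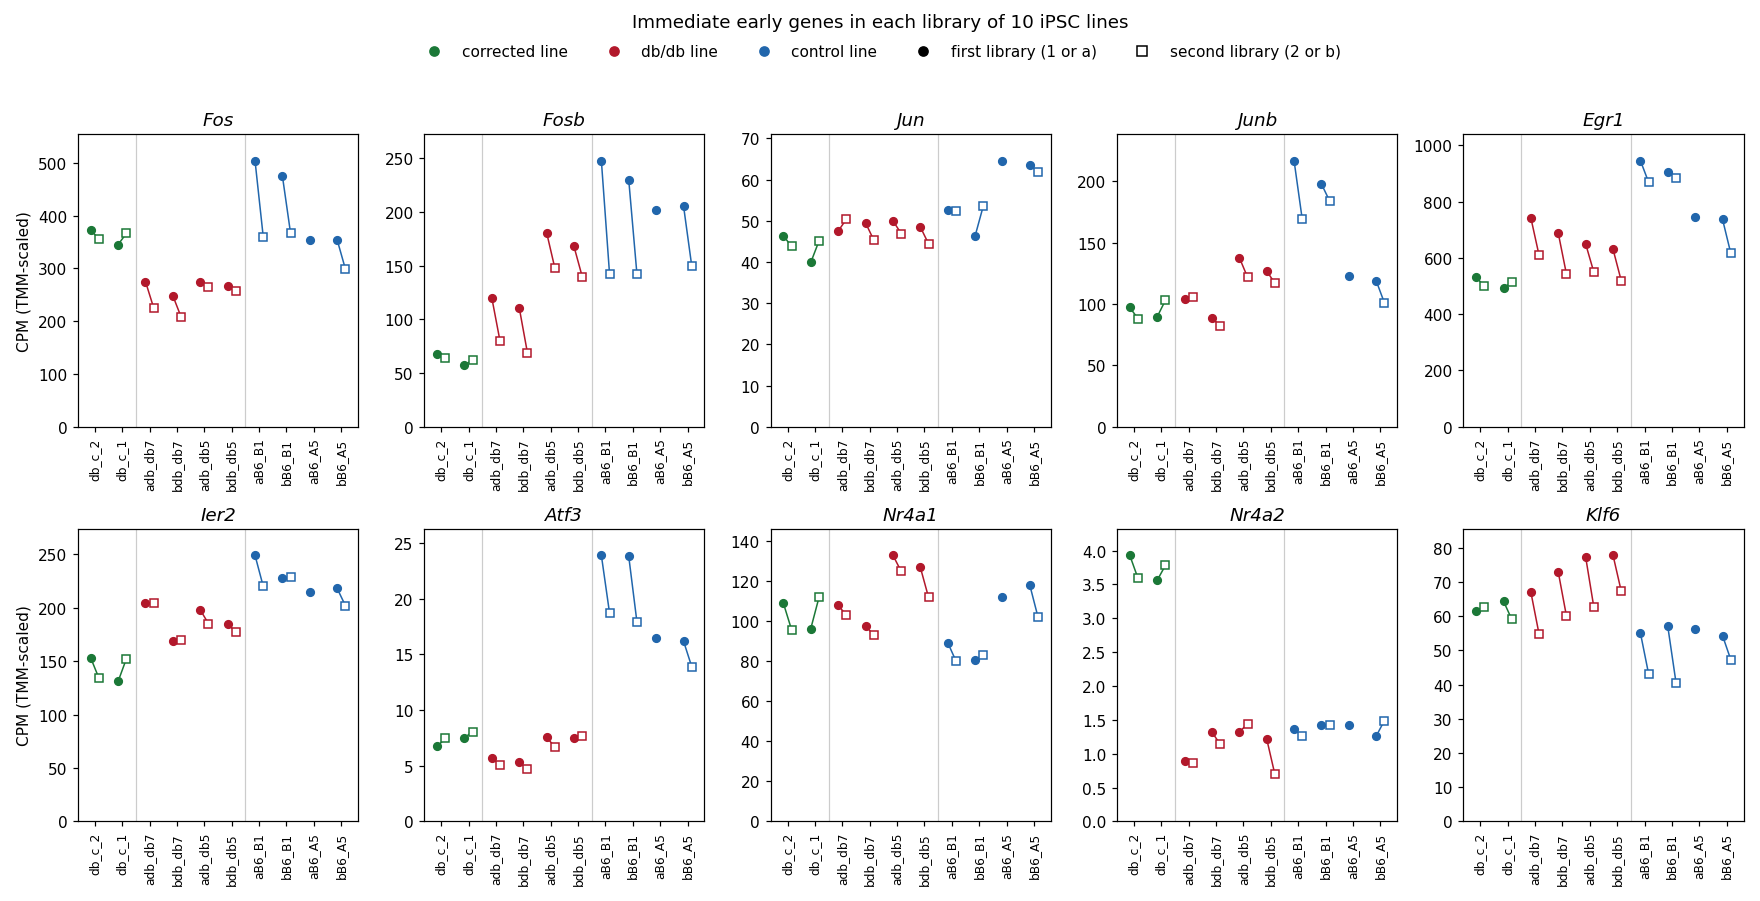
Level of each of the 10 genes (CPM, TMM-scaled, linear axis) in each library of the 10 lines. Circles are first libraries (1 or a), squares second libraries (2 or b), lines join duplicates of a line. Fos is at or below 275 CPM in all db/db libraries, Fosb is lowest in the corrected lines, and many lines that join numbered duplicates slope down.

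Fosb (ENSMUSG00000003545, chr7:19302696-19310051), the close relative of Fos, did not follow it in the corrected lines. Its level was 57.5, 62.2, 68.2 and 64.0 CPM in the libraries of db_c_1 (a, b) and db_c_2 (a, b). It ran between 68.9 and 181 CPM (median 130) in db/db libraries and between 142 and 248 CPM (median 202) in control libraries. The corrected libraries were below all others, by a narrow margin at bdb_db7_2, the lowest db/db library, while db/db and control libraries overlapped. Fosb fell in corrected against db/db lines (62.7 ± 4.7 against 128 ± 37 CPM), with a log2 change of -1.04 ± 0.22 (edgeR adjusted p = 0.0056), and in corrected against control lines (191 ± 9.8 CPM), with a change of -1.61 ± 0.23 (edgeR adjusted p = 0.00088). The call against db/db lines missed the threshold without db_c_1 (edgeR adjusted p = 0.067) and in second libraries alone (-0.77, edgeR adjusted p = 0.068). Between db/db and control lines the change of -0.57 ± 0.17 passed only just (edgeR adjusted p = 0.047). It did not pass without any 1 of 8 of the 10 lines, adb_db5 and bdb_db5 being the exceptions (edgeR adjusted p of 0.066 to 0.11), with DESeq2 size factors (0.05), with only both groups fitted (0.065) or in second libraries alone (-0.41, edgeR adjusted p = 0.29).

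The ratio of Fosb to Fos counts in the same library was 16.7% to 18.4% in corrected libraries (median 17.5%). It was 33.1% to 65.7% in db/db libraries (median 49.6%) and 38.8% to 58% in control libraries (median 49.2%). The corrected libraries did not overlap the others. Among db/db libraries db7 lay at 33.1% to 44.8% and db5 at 54.3% to 65.7%, without overlap, and each of them overlapped the control range. Within each numbered line the ratio was smaller in the second library, for example 33.1% against 44.8% in bdb_db7 and 38.8% against 48.4% in bB6_B1.

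**Figure D2:**
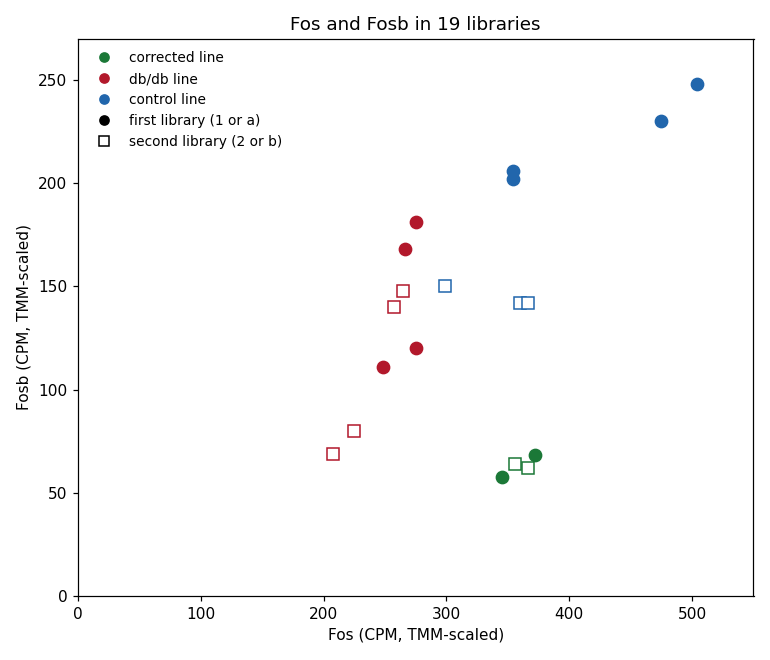
Fosb against Fos (both CPM, TMM-scaled, linear axes from 0) in the 19 libraries, coloured by group, with circles for first and squares for second libraries. The 4 corrected libraries sit together at 345 to 372 CPM of Fos and 57.5 to 68.2 CPM of Fosb, below the db/db and control libraries in Fosb.

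Jun (ENSMUSG00000052684, chr4:95049034-95052222) and Junb (ENSMUSG00000052837, chr8:84974484-84978718) encode AP-1 partners, of which Junb is often the weaker activator. Jun was at 39.9, 45.1, 46.3 and 43.8 CPM in db_c_1a, db_c_1b, db_c_2a and db_c_2b, at 44.4 to 50.4 CPM (median 48) in db/db and at 46.3 to 64.6 CPM (median 53.6) in control libraries. The 3 groups overlapped or touched. Of the group comparisons Jun passed in corrected against control lines, where it fell (43.5 ± 2.1 against 57.3 ± 7.3 CPM), with a log2 change of -0.40 ± 0.11 (edgeR adjusted p = 0.018). This call was lost without db_c_1 or db_c_2 (edgeR adjusted p of 0.082 to 0.15) and with library size alone as scaling (-0.27, edgeR adjusted p = 0.062). Its change was -0.26 ± 0.09 for db/db against control (edgeR adjusted p = 0.064, but an adjusted p of 0.03 with library size alone, 0.04 with DESeq2 and 0.035 without bB6_B1) and -0.14 ± 0.11 for corrected against db/db (edgeR adjusted p = 0.33). With library size alone the log2 change of Jun in corrected against db/db lines was 0.03 (edgeR adjusted p = 0.8), on the other side of 0. With that scaling the median of all genes was 0.19 in corrected against db/db lines (0.02 with TMM) and 0.12 in corrected against control lines (-0.01 with TMM), and Fos differed by 0.03 from control lines.

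Junb was at 89.6, 103, 97.3 and 88.1 CPM in the same corrected libraries, at 82.4 to 138 CPM (median 112) in db/db and at 101 to 217 CPM (median 169) in control libraries. It fell in corrected against control lines (93.8 ± 1.7 against 154 ± 44 CPM), with a log2 change of -0.72 ± 0.25 (edgeR adjusted p = 0.048), and this call was lost without aB6_B1, bB6_B1, adb_db5, adb_db7, bdb_db5, db_c_1 or db_c_2 (edgeR adjusted p of 0.052 to 0.22) with library size alone (0.096), in second libraries alone (0.081) and with only both groups fitted (0.071). It was -0.48 ± 0.20 in db/db against control lines (edgeR adjusted p = 0.12) and -0.24 ± 0.24 for corrected against db/db (edgeR adjusted p = 0.46).

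Atf3 (ENSMUSG00000026628, chr1:191170296-191218039) had the largest fall of the 10 genes in db/db against control lines. It was at 7.51, 8.07, 6.73 and 7.45 CPM in db_c_1a, db_c_1b, db_c_2a and db_c_2b, at 4.69 to 7.67 CPM (median 6.19) in db/db libraries and at 13.9 to 23.9 CPM (median 17.9) in control libraries. Corrected and db/db libraries overlapped, and both lay below every control library. The log2 change of Atf3 was -1.55 ± 0.16 in db/db against control lines (6.28 ± 1.2 against 18.4 ± 3.1 CPM, edgeR adjusted p = 0.00043) and -1.32 ± 0.21 in corrected against control lines (7.38 ± 0.48 CPM, edgeR adjusted p = 0.0015). Between corrected and db/db lines the value was 0.23 ± 0.20 (edgeR adjusted p = 0.38). Neither of the 2 calls against control lines was lost when a line was left out. For db/db and control lines this keeps the other line of the same shared name. With lines of a shared name summed to 1 sample, Atf3 did not pass in db/db against control (edgeR adjusted p = 0.092).

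Egr1 (ENSMUSG00000038418, on chromosome 18), whose product binds GC-rich sites and is limited by the co-repressors Nab1 and Nab2, was the most abundant of the 10 genes in CPM. It was at 492, 515, 532 and 499 CPM in db_c_1a, db_c_1b, db_c_2a and db_c_2b, at 519 to 742 CPM (median 620) in db/db and at 617 to 946 CPM (median 869) in control libraries. Corrected libraries lay below all control libraries, and db/db libraries overlapped both. The log2 change of Egr1 was -0.38 ± 0.10 in db/db against control lines (621 ± 46 against 807 ± 110 CPM, edgeR adjusted p = 0.025) and -0.67 ± 0.12 in corrected against control lines (507 ± 10 CPM, edgeR adjusted p = 0.0028). The first of these calls was lost when aB6_B1, bB6_B1, adb_db5, bdb_db5 or bdb_db7 was left out (edgeR adjusted p of 0.051 to 0.07) and in first libraries alone (0.056). For corrected against db/db the value was -0.29 ± 0.12 (edgeR adjusted p = 0.079), which passed with DESeq2 (0.047), without bB6_A5 (0.047) and in first libraries alone (-0.41, 0.021).

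Klf6 (ENSMUSG00000000078, chr13:5861482-5870394), a growth-restraining Krüppel-like factor, was the one member that rose in db/db against control lines. It was at 64.4, 59.1, 61.5 and 62.8 CPM in the same corrected libraries, at 54.7 to 77.8 CPM (median 67.1) in db/db and at 40.6 to 57 CPM (median 54.3) in control libraries. The lowest db/db library was the second of adb_db7, the only one within the control range. The log2 change was 0.41 ± 0.07 in db/db against control lines (67.9 ± 4.8 against 51.3 ± 3.4 CPM, edgeR adjusted p = 0.0045) and 0.27 ± 0.08 in corrected against control lines (61.9 ± 0.030 CPM, edgeR adjusted p = 0.03). The second call was lost when aB6_B1, bB6_A5, bB6_B1, db_c_1 or db_c_2 was left out (edgeR adjusted p of 0.054 to 0.14) in first libraries alone (0.097) and with no filter on low counts (0.065). Corrected against db/db lines gave -0.13 ± 0.08 (edgeR adjusted p = 0.23), and with library size alone the log2 change was 0.04 (edgeR adjusted p = 0.74). In first libraries alone it was -0.23 (edgeR adjusted p = 0.039). With lines of a shared name summed to 1 sample, Klf6 did not pass in db/db against control (edgeR adjusted p = 0.17).

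Nr4a2 (ENSMUSG00000026826, chr2:57106830-57124003), the orphan receptor known from dopamine neurons, was the least abundant member, with 21 to 154 counts in a library. It was at 3.56, 3.78, 3.93 and 3.59 CPM in db_c_1a, db_c_1b, db_c_2a and db_c_2b, at 0.694 to 1.44 CPM (median 1.18) in db/db and at 1.26 to 1.49 CPM (median 1.42) in control libraries. Every corrected library was above every other library. Nr4a2 rose by 1.72 ± 0.18 in corrected against db/db lines (3.70 ± 0.079 against 1.12 ± 0.23 CPM, edgeR adjusted p = 0.00017) and by 1.42 ± 0.18 in corrected against control lines (1.38 ± 0.054 CPM, edgeR adjusted p = 0.00054). In db/db against control lines the value was -0.30 ± 0.16 (edgeR adjusted p = 0.22).

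Nr4a1 (ENSMUSG00000023034, chr15:101254269-101274795), its paralog, passed the test in none of the 3 group comparisons. It was at 96.4, 112, 109 and 95.7 CPM in the same corrected libraries, at 93 to 133 CPM (median 110) in db/db and at 80.2 to 118 CPM (median 89.4) in control libraries, all overlapping. The log2 values were 0.21 ± 0.13 in db/db against control, -0.13 ± 0.15 in corrected against db/db and 0.08 ± 0.15 in corrected against control lines (edgeR adjusted p = 0.27, 0.53 and 0.72).

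Ier2 (ENSMUSG00000053560, chr8:84661331-84662852) was lowest in the corrected lines. It was at 131, 152, 153 and 134 CPM in db_c_1a, db_c_1b, db_c_2a and db_c_2b, at 169 to 204 CPM (median 185) in db/db and at 202 to 249 CPM (median 220) in control libraries. The corrected libraries did not overlap either group, and db/db and control libraries overlapped only at their edges. Ier2 fell in all 3 comparisons, with log2 changes of -0.25 ± 0.07 in db/db against control (187 ± 15 against 222 ± 11 CPM, edgeR adjusted p = 0.028), -0.40 ± 0.08 in corrected against db/db (141 ± 3.0 CPM, edgeR adjusted p = 0.0042) and -0.65 ± 0.08 in corrected against control lines (edgeR adjusted p = 0.00051). The first call was lost without aB6_B1, bB6_B1, bdb_db5, db_c_1 or db_c_2 (edgeR adjusted p of 0.06 to 0.076) in second libraries alone (0.096) and with no filter on low counts (0.053), and the second without db_c_1 (0.059).

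Per kilobase of the longest annotated transcript, the order of the group means was Fos, Egr1, Ier2, Junb, Fosb, Nr4a1, Jun, Klf6, Atf3 and Nr4a2 in control lines, with 182 CPM per kilobase for Fos and 180 for Egr1, which did not differ beyond the spread between lines, down to 0.386 for Nr4a2. In db/db lines Egr1 was at 139, Ier2 at 123 and Fos at 120 CPM per kilobase, and Fosb at 34 was below Nr4a1 at 44.1. In corrected lines Fos led at 170 CPM per kilobase, Egr1 followed at 113, and Fosb came down to 16.6, also below Nr4a1 at 40.2.

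Counted together, 6 of the 10 members passed the test in db/db against control lines, 5 down and 1 up, where 16.9% of 19700 genes passed (9.5% down and 7.41% up). In corrected against db/db lines 2 rose (Fos and Nr4a2) and 2 fell (Fosb and Ier2), where 36.7% of genes passed (18.7% up and 18% down). The 4 of 10 is near that background. In corrected against control lines 6 fell and 2 rose, where 33.2% passed (17% down and 16.2% up). These comparisons share lines, so their counts are not independent. The members were also chosen with earlier results of these data known, so a count above the background is not independent evidence. With lines of a shared name summed to 1 sample no member passed between db/db and control (2 against 2 samples, 0.161% of genes passed). The edgeR adjusted p was then 0.092 for Atf3, 0.15 for Fos, 0.17 for Klf6, 0.24 for Ier2, 0.26 for Egr1 and 0.31 for Fosb. In that fit Nr4a2, Ier2 and Fosb still passed between corrected and db/db samples (edgeR adjusted p = 0.015, 0.03 and 0.037), and Fos did not (0.054). Against control samples Ier2, Fosb, Nr4a2, Atf3 and Egr1 passed (0.018 to 0.034), while Jun, Junb and Klf6 did not (0.082, 0.11 and 0.12).

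**Figure D3:**
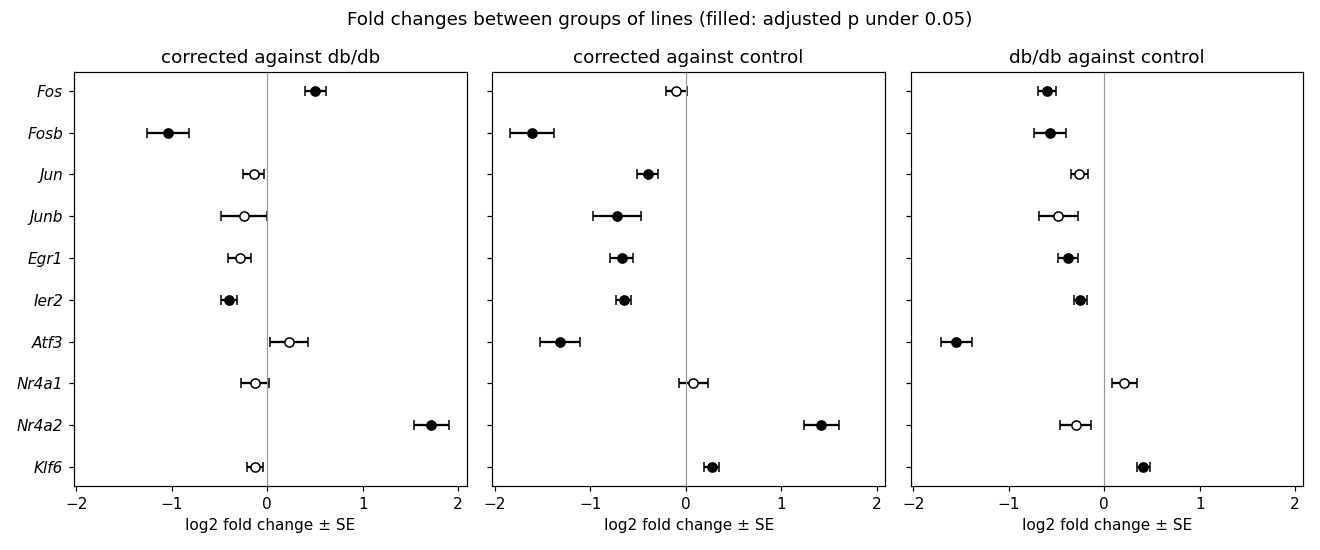
Log2 fold changes of the 10 genes with their standard errors in the 3 group comparisons (edgeR on counts summed per line), filled where the adjusted p is under 0.05. Atf3 is at -1.55 and -1.32 against control lines, Nr4a2 at 1.72 and 1.42 in the corrected lines, and Fosb at -1.04 and -1.61 there.

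The duplicates of a line differed in 1 direction for most of the members. In the 7 lines with libraries numbered 1 and 2, 7 of the 10 members fell in the second against the first library and none rose, where 9.58% of 18666 genes passed that test (5.51% down and 4.08% up). Without the second library of adb_db7 the same number fell, where 5.6% of genes passed. Fosb fell most, with a log2 change of -0.54 ± 0.05 (edgeR adjusted p = 1.8e-05), with single lines between -0.81 and -0.27. In aB6_B1 it was at 142 CPM in the second and 248 CPM in the first library, and in bdb_db7 at 68.9 and 111 CPM. The changes were -0.31 ± 0.03 for Klf6 (edgeR adjusted p = 2.4e-05), -0.25 ± 0.04 for Fos (edgeR adjusted p = 0.0017) and -0.23 ± 0.03 for Egr1 (edgeR adjusted p = 0.00024). Fosb, Klf6, Fos and Egr1 were lower in the second library of 7 of 7 lines, as were 5.8% of all genes tested. Atf3 (-0.24 ± 0.06), Junb (-0.16 ± 0.04) and Nr4a1 (-0.11 ± 0.03) fell too and were lower in 6 of 7 lines (edgeR adjusted p = 0.014, 0.012 and 0.027). Atf3 lost its call without aB6_B1 or bB6_B1 (edgeR adjusted p of 0.05 to 0.063) and with DESeq2 (0.063), and Nr4a1 without aB6_B1, bB6_A5, adb_db7, bdb_db5 or bdb_db7 (0.05 to 0.094) and with library size alone (0.066). Jun (-0.02 ± 0.04), Ier2 (-0.07 ± 0.03) and Nr4a2 (-0.09 ± 0.13) did not pass (edgeR adjusted p = 0.83, 0.12 and 0.75).

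**Figure D4:**
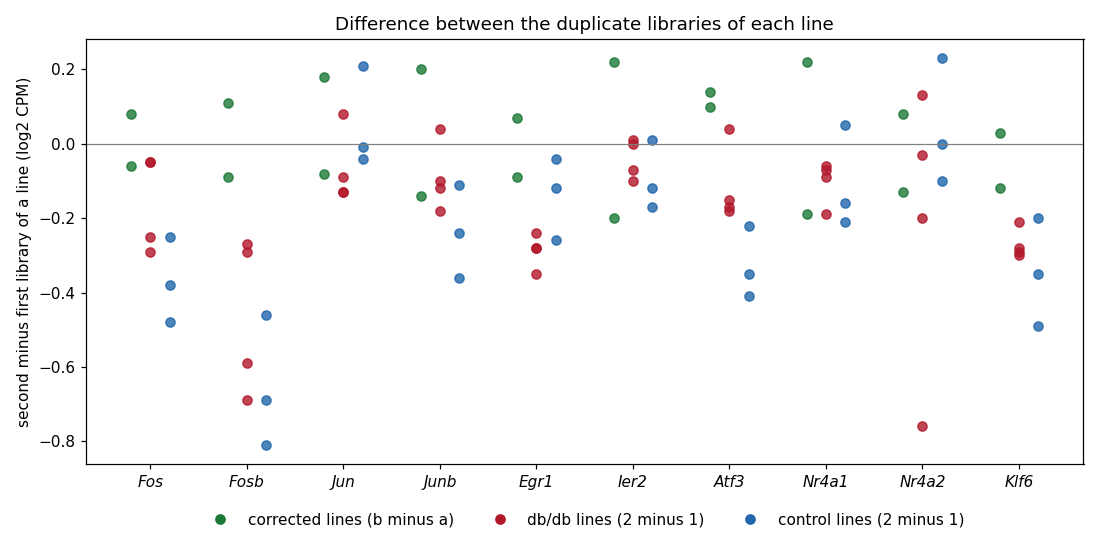
Second minus first library of each line (log2 CPM) for the 10 genes, 1 point per line, for the 2 corrected lines (b minus a), the 4 db/db lines and the 3 control lines with numbered duplicates. All 7 numbered lines are below 0 for Fos, Fosb, Egr1 and Klf6, while for these genes the 2 corrected lines lie on either side of 0.

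The duplicate gap of Fosb was about as large as its gap between genotypes: 1.46-fold lower in second than in first libraries, beside 1.49-fold lower in db/db than in control lines. For Fos the values were 1.19-fold and 1.51-fold, for Egr1 1.17-fold and 1.30-fold, and for Atf3 1.18-fold and 2.93-fold. Control lines hold 4 first and 3 second libraries, db/db lines 4 of each. The duplicate gap was also estimated in each genotype. In db/db lines 3 members fell (Fosb, Egr1 and Klf6) and none rose, where 4.35% of genes passed (2.27% down and 2.08% up), or 1.91% of genes without the second library of adb_db7. In control lines 5 fell (Fos, Fosb, Junb, Atf3 and Klf6) and none rose, where 1.79% passed (1% down and 0.788% up). For Fos it was -0.16 ± 0.04 in db/db and -0.38 ± 0.05 in control lines, and for Egr1 -0.29 ± 0.03 and -0.15 ± 0.04. Of the 10 members none passed edgeR's test of the difference between these gaps (5 at an unadjusted p under 0.05, lowest adjusted p 0.55 for Fos), where 0.00536% of genes passed. In the corrected lines the b library was higher than the a library for Fos, Fosb, Jun, Junb, Egr1, Ier2, Nr4a1 and Nr4a2 in db_c_1 and lower in db_c_2, so their letters showed no shared direction for these genes.

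Fibroblast markers moved with the duplicates in the other direction. Of 19 tested genes of that list 15 rose in the second library and none fell (median 0.61 on the log2 scale, against 0 over all genes). Their summed level was 1490 to 1730 CPM in second and 1240 to 1440 CPM in first libraries of db/db lines, and 1930 to 2010 and 1500 to 1720 CPM in those of control lines. Fn1 was the largest part of these sums, at 922 to 1210 CPM in db/db and 1010 to 1210 CPM in control libraries. Of that list Dcn and Lum were at or below 0.348 CPM in every library. The median difference of the list was 0.35 to 0.74 in the 7 numbered lines, and 0.05 and -0.05 (b minus a) in db_c_1 and db_c_2. The pluripotency markers summed to 8600 to 9020 CPM in second and 8600 to 8930 CPM in first libraries of db/db lines, and to 8080 to 8640 and 8570 to 8670 CPM in those of control lines. They were lower in the second library of aB6_B1 (8080 against 8670 CPM) and bB6_B1 (8150 against 8570 CPM) and about level in bB6_A5 (8640 against 8630 CPM). Of 13 heat shock and dissociation response genes 1 rose and none fell in second libraries. Fewer cells of a type and less RNA per cell cannot be told apart in bulk samples, and the part of the fibroblast and pluripotency markers in the duplicate gap of the 10 genes was not tested.

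Other genes of the immediate early response were counted in the same duplicates, beside the 5.51% of all genes that fell and the 4.08% that rose. In second against first libraries 8 of 21 tested AP-1 and related bZIP genes fell and none rose, and 10 of 39 other immediate early response genes fell and 1 rose. Among 16 other Egr, Nr4a, Klf and Ier genes and their co-repressors 6 fell and 1 rose. Their medians were -0.06, -0.06 and -0.08. Of 13 tested genes of serum response factor, its cofactors and genes listed with them 5 fell and 3 rose (median 0.03, on the other side of 0). Of 25 MAP kinase and CREB kinase genes 4 fell, and of 14 integrated stress response targets 6 fell and 1 rose.

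Differences between lines of a genotype reached the size of those between genotypes for some members. In db7 against db5 lines, which share the db/db genotype, 4 members fell and none rose, where 23.7% of 19221 genes fell and 21.9% rose (45.7% in all). These tests take the spread between duplicates as the error. The log2 changes were -0.74 ± 0.19 for Fosb, -0.50 ± 0.11 for Atf3, -0.41 ± 0.08 for Junb and -0.31 ± 0.06 for Nr4a1 (edgeR adjusted p = 0.0049, 0.0019, 0.00037 and 0.00083), and Junb missed the threshold without bdb_db7 (0.051). With the duplicate number as a replicate block Fos and Klf6 fell as well (both -0.15, edgeR adjusted p = 0.037 and 0.0059) and Egr1 rose (0.15, edgeR adjusted p = 0.0053), which made 6 down and 1 up where 52.1% of genes passed. For Fosb this stands beside -0.57 ± 0.17 between db/db and control lines, and the difference between both values was not tested.

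In B1 against A5 lines, both control, 4 members rose (Fos, Junb, Egr1 and Atf3) and 2 fell (Jun and Nr4a1), where 39.4% of genes passed (19.7% up and 19.7% down). Junb was at 169 to 217 CPM in the 4 B1 libraries and at 101 to 123 CPM in the 3 A5 libraries, a change of 0.72 ± 0.09 (edgeR adjusted p = 4.1e-06). The call of Fos was lost with DESeq2 (adjusted p = 0.064). Without bB6_A5 the calls of Fos, Egr1 and Atf3 were lost (edgeR adjusted p of 0.25, 0.16 and 0.11), and 3 members passed in all. Nr4a1 was at 80.2 to 89.4 CPM in B1 and 102 to 118 CPM in A5 libraries, a change of -0.41 ± 0.07 (edgeR adjusted p = 0.00016). The median of 368 genes on its chromosome 15 was -0.44 in the same comparison, against 0 over the 9149 genes that averaged 10 CPM or more. That chromosome was at -0.22 in db/db against control lines (0.04 over those genes) and at -0.22 in corrected against control lines (-0.09), where Nr4a1 itself was at 0.21 and 0.08. Chromosomes of the other 9 members had medians of -0.01 to 0.05 in B1 against A5 lines and of 0 to 0.07 in db/db against control lines. In corrected against control lines they had medians of -0.17 to -0.01, the lowest on chromosome 7, which holds Fosb.

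Lines of a shared name and the corrected lines were close. No member passed edgeR's test in b against a lines (2 at an unadjusted p under 0.05, Ier2 and Junb, and none with DESeq2), where 0.026% of genes passed (0.0052% up and 0.0208% down). None passed between db_c_2 and db_c_1 (none at an unadjusted p under 0.05 and none with DESeq2), where 0% of genes passed. Split into nested parts, the variance of log2 CPM over the 19 libraries lay mainly between groups for Atf3 (90%), Nr4a2 (89.9%) and Ier2 (85.4%), against a median of 50.1% over all genes tested. Shared names in a group took 56.5% for Nr4a1 and 42.1% for Junb (median of all genes 20.9%). Duplicates of a line took 31.4% for Klf6, 14.2% for Fos and 13.6% for Fosb (median 10.7%), but 2.09% for Atf3. Lines of a shared name took at most 6.55% for any member.

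**Figure D5:**
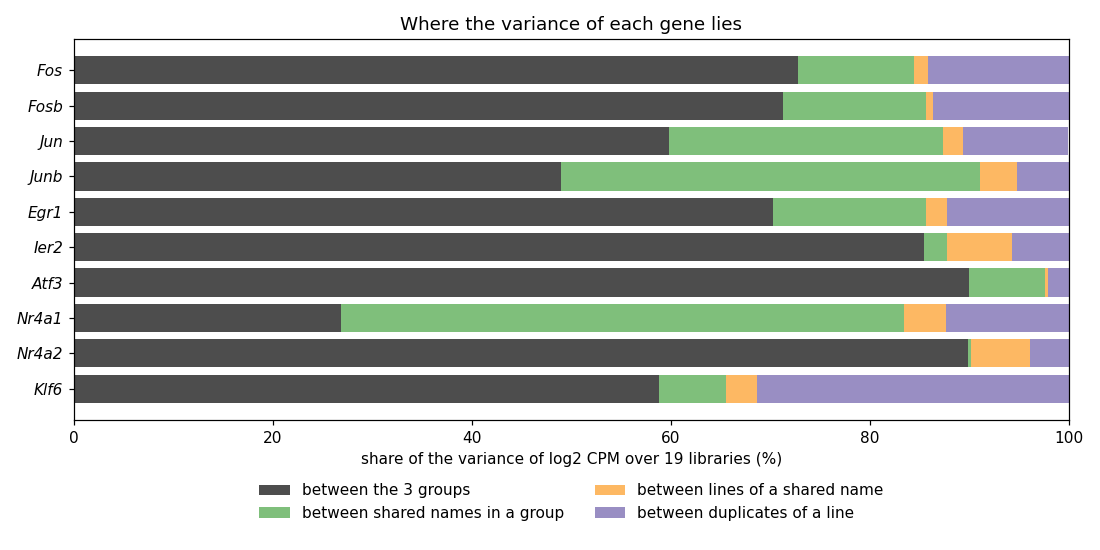
Share of the variance of log2 CPM over 19 libraries (%) that lies between the 3 groups, between shared names in a group, between lines of a shared name and between duplicates of a line, for each gene. Klf6 has the widest part between duplicates (31.4%), Nr4a1 and Junb the widest between shared names (56.5% and 42.1%).

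Relatives of the members were set beside them between groups. In db/db against control lines 1 of 22 AP-1 and related bZIP genes fell and 1 rose (median -0.10 on the log2 scale, against 0 over all genes, of which 9.5% fell and 7.41% rose): Jund, the AP-1 partner that is usually made constantly, fell (42.1 ± 9.4 against 65.7 ± 1.0 CPM, -0.64 ± 0.14, edgeR adjusted p = 0.014), and Creb1 rose (0.34 ± 0.10, edgeR adjusted p = 0.04). Of 16 Egr, Nr4a, Klf and Ier relatives 4 fell, Klf11, Egr2 and Ier5l among them, and none rose. Egr2 was at 14.4 ± 0.38 and 19.3 ± 0.86 CPM in db/db and control lines (-0.43 ± 0.07, edgeR adjusted p = 0.0039). Of 39 other immediate early response genes 10 fell and 2 rose, against the same background. Arc, a synaptic regulator, fell to 62.0 ± 7.9 CPM in db/db lines, against 120 ± 29 CPM in control lines (-0.96 ± 0.16, edgeR adjusted p = 0.0043), and Plk2 (-0.40 ± 0.05) and Rhob (-0.54 ± 0.11) fell as well. The inducible heat shock genes Hspa1b (-1.16 ± 0.10) and Hspa1a (-1.02 ± 0.10) fell among 13 genes of that list, of which 3 fell. Of 25 MAP kinase and CREB kinase genes 5 rose and 1 fell.

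Fibroblast markers differed between these groups too. Of 19 tested 14 fell and none rose in db/db against control lines (median -0.79), and the list summed to 1240 to 1730 CPM in db/db and 1500 to 2010 CPM in control libraries. Most of both sums was Fn1, at 922 to 1210 CPM in db/db and 1010 to 1210 CPM in control libraries. The part of these markers in the fall of the immediate early genes was not tested.

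In the corrected lines the relatives split. Against db/db lines 6 of 22 AP-1 and bZIP genes fell and 2 rose, where 18% of all genes fell and 18.7% rose. The lowest p was that of Atf4, the main factor of the integrated stress response, which fell (187 ± 2.5 against 347 ± 18 CPM, -0.89 ± 0.15, edgeR adjusted p = 0.0019). Of 14 integrated stress response targets 9 fell and 1 rose (median -0.55, against 0.02 over all genes), for example Mthfd2 (-0.81 ± 0.15) and Slc3a2 (-0.56 ± 0.06). The Egr co-repressors Nab1 (24.1 ± 0.75 against 6.92 ± 2.2 CPM, 1.80 ± 0.27) and Nab2 (27.8 ± 0.82 against 15.9 ± 1.4 CPM, 0.80 ± 0.15) both rose, while Egr2 fell (-0.57 ± 0.09; edgeR adjusted p = 0.0009, 0.0031 and 0.0011). Of 39 other immediate early response genes 11 rose and 10 fell. Among them Ptgs2, the inducible prostaglandin synthase (31.5 ± 0.62 against 7.18 ± 3.0 CPM, 2.13 ± 0.29, edgeR adjusted p = 0.00056), and Trib1 (0.76 ± 0.10) rose and Myc fell (-0.90 ± 0.12). Myc is also carried by the reprogramming vector, and the part of the vector in its count was not tested.

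Against control lines 7 of 22 AP-1 and bZIP genes fell and 1 rose in the corrected lines (17% and 16.2% of all genes), Jund (-1.06 ± 0.18) and Maff (-0.81 ± 0.14) among those that fell. Of 16 other Egr, Nr4a, Klf and Ier genes 5 fell and 4 rose. Among them Egr2 fell by 1 ± 0.09 on the log2 scale (9.66 ± 0.77 against 19.3 ± 0.86 CPM, edgeR adjusted p = 9.6e-05). Of 39 other immediate early response genes 10 fell and 9 rose, beside the same shares of all genes. Ppp1r15a (-0.77 ± 0.08) and Plk3 (-0.63 ± 0.07) fell, while Homer1 rose (1.08 ± 0.12). Extraembryonic endoderm markers stood apart in the same lines. They summed to 1440 to 1540 CPM in corrected libraries, 876 to 1010 CPM in db/db and 1020 to 1090 CPM in control libraries, and of 16 tested 12 rose and none fell against db/db lines, and 10 rose and 1 fell against control lines. In corrected libraries Lamc1 (562 to 590 CPM) and Sparc (443 to 460 CPM) were the largest parts of the sum. Against db/db lines the basement membrane genes Col4a1 and Col4a2 had the lowest p (both 1.41), and Pdgfra rose by 1.60. The gene that fell against control lines was Lama1 (-0.84 ± 0.13). Sox7 was at 2.84 to 3.60 CPM in corrected, 3.08 to 8.69 CPM in db/db and 2.46 to 3.40 CPM in control libraries. Cubn was at 1.17 to 1.53 CPM in corrected, 0.059 to 0.132 CPM in db/db and 0.0822 to 0.458 CPM in control libraries. The regulator Gata4 was at 7.19 to 7.40 CPM in corrected, 2.49 to 6.61 CPM in db/db and 3.37 to 4.83 CPM in control libraries, and Ttr and Apoa1 were at or below 0.137 CPM in every library. Neural markers summed to 251 to 261 CPM in corrected libraries, 418 to 465 CPM in db/db and 393 to 463 CPM in control libraries, and of 8 tested 4 fell and 1 rose against db/db lines. Most of that sum was Stmn2, at 212 to 221 CPM in corrected, 357 to 401 CPM in db/db and 282 to 375 CPM in control libraries. Pluripotency markers summed to 7820 to 8110 CPM in corrected libraries, below the 8600 to 9020 CPM of db/db and overlapping the 8080 to 8670 CPM of control libraries, and of 15 tested 6 fell and 1 rose against db/db lines. Of 19 fibroblast markers 9 rose and none fell against db/db lines, with sums of 1320 to 1540 CPM in corrected and 1240 to 1730 CPM in db/db libraries. Most of both sums was Fn1, at 871 to 962 CPM in corrected and 922 to 1210 CPM in db/db libraries. The part of all these markers in the rise of Nr4a2 and the fall of Fosb and Ier2 was not tested.

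Genes whose profiles over the 19 libraries lay nearest to a member were found by the root mean square distance of centred log2 CPM, among 8666 genes. The measure is a description of libraries that share lines and depth. Fosb lay nearest to Bhlhe40 (distance 0.201, against a deviation of 0.672 of Fosb itself) and Socs3 (0.258), both known as inducible genes. Junb lay nearest to Arpc4 (0.126) and Zfp36 (0.128, against 0.401), which encodes an RNA-destabilising protein of the immediate early response. Jun lay nearest to Mrtfa, a cofactor of serum response factor (0.0743, against 0.181), and Atf3 to Fhod3 (0.198, against 0.758). For Fos the nearest was Cth (0.105, against 0.333), for Ier2 Zdhhc4 and Midn (0.0707 and 0.0786, against 0.258), for Egr1 Pde9a (0.12, against 0.305), for Nr4a2 Soga1 (0.279, against 0.693), for Klf6 Acsl3 (0.103, against 0.246) and for Nr4a1 Hsd17b14 (0.0937, against 0.21). No member was among the 3 nearest of another.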

How the data were processed

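Per the labels and the series' design text, total RNA of 19 mouse iPSC libraries from 10 lines went through a TruSeq stranded mRNA kit and a NovaSeq run. The values are estimated counts per gene as the authors deposited them. The submitters' processing notes name GRCm38 and kallisto. The kallisto version and index were not given in the sources used here. Of the values 79.7% were whole within 1e-06, and 51336 of 52143 gene identifiers matched GENCODE M21. Estimated counts were rounded and, for group comparisons, added up over the libraries of a line. The 3 groups were fitted together with edgeR 4.0.16 in R 4.3.3 (filterByExpr, TMM, quasi-likelihood F-test, Benjamini-Hochberg adjustment over 19700 genes, threshold 0.05). Comparisons between lines (19221 genes) and duplicates (18666 genes) used single libraries with line as a term. SE is the log2 change divided by the square root of F. Log2 CPM had a prior count of 2. Lists held genes by symbol, and 233 of 233 entries were in the table. Named list genes are up to 3 called genes of lowest p per comparison and list; nearest genes needed a mean of 10 CPM and a distance under 0.6 of the member's own deviation. The tests were tried on simulated data. For the group tests the simulated lines varied independently, so lines of a shared name were no more alike than others. That simulation therefore cannot give the error rate of the group tests on these lines. The 10 members and all lists were chosen with earlier results of these data known. Fits on first or second libraries alone, and of the duplicate gap by genotype (also without the second library of adb_db7), were added after seeing the data. Promoter windows are RefSeq's. Other alternatives were DESeq2 1.42.0, other scalings, filters and units, and leaving out each line.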

Additional observations from a re-analysis of the deposited data

How the results depend on the processing

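No alternative turned the direction of a called member, and 99 of 109 recomputed counts of called members stayed within 1.5 times. This share counts 0 against 0 as within, and also a fall from 6 to 4. With lines of a shared name as the unit, 0 members passed in db/db against control lines and 5 in corrected against control lines, with fewer samples in the fit. Leaving out each line in turn gave 3 to 5 members in db/db against control (3 without aB6_B1), always fewer than the 6 with all lines. It gave 1 to 5 in corrected against db/db (1 without db_c_1), 5 to 8 in corrected against control (5 without db_c_1 or db_c_2), 3 to 4 in db7 against db5, 3 to 6 in B1 against A5 and 5 to 7 between duplicates. With no filter on low counts 7 passed in db7 against db5 lines and 1 (Junb) in b against a lines, while 5 passed in db/db against control (Ier2 lost) and 7 in corrected against control (Klf6 lost). Corrected lines differed from db/db lines in 6 members by first libraries alone and 3 by second libraries alone, and from control lines in 7 and 7. Between db/db and control lines these counts were 5 and 4. The duplicate numbers were also used as a replicate block. Differences between duplicates correlated at 0.0118 to 0.531 (Pearson, 12 pairs of a db/db with a control line, 9149 genes), under 0.1 in 1 pair, and at 0.141 to 0.546 by Spearman, so whether the numbers pair the libraries depends on the measure. With the replicate block 7 members passed in db7 against db5, 7 in B1 against A5 (Ier2 added) and 0 in b against a. For db/db against control the block needs each library as a sample, and 8 members then passed with it and 9 without it, beside 6 with lines as samples. The fit with the block left out the corrected lines. The cause of these shifts was not tested. With library size alone the calls of Jun and Junb against control were lost in corrected lines. Depth limits Nr4a2, with as few as 21 counts in a library.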
